A study of Mus musculus with 12 samples.

Results

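The genes described here are 39 genes of fibroblasts and of the extracellular matrix, taken from a list of gene symbols and measured in the mouse thymus. The platform's gene table named a probe set for 38 of them, and where a gene had several probe sets the brightest on average over the 12 arrays stood for it, and 1 listed gene was not analysed here. Of the 38, 28 passed the filter on low values (an average of 5 or more on the log2 scale) and were tested among 17925 probe sets, and 10 lay below it. The 12 one-colour Affymetrix arrays each held RNA of the thymus at an age of 7 to 8 weeks, with 3 biological replicates in each of 4 groups. These were XXsry males (XX with Sry), XX females (XX without Sry), XY-sry males (a Y chromosome marked Y-, with Sry) and XY- females (Y-, without Sry). As background, in mice of this design the Y- chromosome lacks its own Sry, the gene that starts testis development, and Sry is supplied by a transgene. No agent was given to any group. Strain and the transgene's promoter and site are not given in the sources used here. Because all mice with Sry are male and all mice without it female, Sry and everything that follows from gonadal sex cannot be told apart. In these bulk samples fewer cells of a type and less RNA per cell cannot be told apart either.

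Fibroblasts of the thymic capsule, septa and vessel walls lay down the matrix on which epithelium and thymocytes rest. Interstitial collagens such as types I, III, V and VI form fibrils and beaded filaments, small proteoglycans such as decorin and lumican bind those fibrils, and fibronectin links matrix to integrins on cells. Basement membranes under epithelium and vessels are built instead from type IV collagen, laminins, nidogens and the proteoglycan perlecan.

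The labels were borne out by the genes that define them. On the log2 scale, Sry lay between 6.74 and 6.95 in XXsry arrays against 5.33 and 5.39 in XX arrays, and between 6.84 and 7.20 in XY-sry arrays against 5.23 and 5.65 in XY- arrays. Xist lay at 11.10 or higher in every XX and XXsry array and at 4.19 or lower in every XY- and XY-sry array. Array medians lay between 4.02 and 4.10. XY- replicate 2 stood furthest from its group, with an SD of 0.162 around the group mean over all tested probe sets, where the other arrays had 0.073 to 0.13. The gap between the 3' and 5' actin probe sets, which widens as RNA degrades, was 0.79 ± 0.046 in XY-sry and 0.627 ± 0.101 in XY-, and 0.73 ± 0.026 in XXsry and 0.73 ± 0.061 in XX (SD, n = 3 each). None of the 38 genes lies on X or Y in the RefSeq gene table.

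Fibroblast genes were measured in every group. Dcn, which encodes decorin, averaged 8.49 over the 12 arrays, Col3a1 7.50, Lum (lumican) 7.02 and Col1a2 6.54, all as log2 levels of their own probe sets. Pdgfrb, the PDGF receptor of mural cells and fibroblasts, averaged 5.69. Pdgfra, the PDGF receptor that marks fibroblasts, averaged 4.73 and Col1a1 4.78, both below the filter. Probe sets differ in their response, so these levels do not rank the genes.

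The first comparison asked which matrix genes differed with Sry, as the mean of XXsry and XY-sry minus the mean of XX and XY- (the Sry effect, 6 arrays against 6). Fibronectin, the small proteoglycans decorin and lumican, the phospholipid phosphatase Plpp3 and the basement membrane collagen Col18a1 were higher with Sry, and periostin was lower. In limma with Benjamini-Hochberg adjustment over all tested probe sets, 6 of 28 genes (21.4%) had an adjusted p under 0.05, 5 higher and 1 lower, where 6.56% of all tested probe sets passed. By direction, 17.9% of the 28 were higher and 3.57% lower, against 3.95% and 2.61% of all tested probe sets. Another 9 of the 28 had an unadjusted p under 0.05 without passing, since 15 did in all. The median size of the difference was 0.17 over the 28 and 0.07 over all tested probe sets. The count of 6 was 3 without XY-sry replicate 1, without XY-sry replicate 3 or without XY- replicate 1, and 10 without XY- replicate 2. With the actin gap as a covariate Lum, Plpp3 and Col18a1 did not pass, while Col5a2 did. Without the filter on low values Plpp3 and Col18a1 did not pass.

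Fn1, the fibronectin gene, had log2 values of 7.73, 7.51 and 7.58 in XXsry, against 7.01, 6.80 and 7.01 in XX. In XY-sry it had 7.43, 7.40 and 7.56, against 6.85, 6.66 and 7.03 in XY-. Every array with Sry lay above every array without it. The Sry effect was 0.64 ± 0.069 (standard error), a 1.56-fold difference (limma adjusted p = 0.000512). Fn1 passed in each complement, at 0.67 ± 0.098 in XX (limma adjusted p = 0.0106) and 0.62 ± 0.098 in XY- (limma adjusted p = 0.006). Without XX replicate 2 the effect in XX had an adjusted p of 0.0549. With the actin gap as a covariate the effect in XY- was 0.40 (limma adjusted p = 0.123), and it did not pass when only XY-sry and XY- were fitted. A second Fn1 probe set, with a mean log2 value of 3.10 and so below the filter, averaged 3.25 in XXsry against 2.89 in XX. It averaged 3.34 in XY-sry against 2.92 in XY-, also with no overlap between arrays with and without Sry. Its mean lay below the array medians of 4.02 to 4.10, where signal of the gene cannot be told from background. The share of all unfiltered probe sets with no such overlap was not computed, so nothing is read from this probe set.

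Dcn had 8.89, 8.67 and 8.73 in XXsry, against 8.15, 8.07 and 8.22 in XX. It had 8.67, 8.56 and 8.60 in XY-sry, against 8.32, 8.28 and 8.67 in XY-. The XX complement showed the wider gap, and XY- replicate 3 reached the range of the arrays with Sry. The Sry effect was 0.40 ± 0.069 (limma adjusted p = 0.00752). Within XX it was 0.62 ± 0.097 (limma adjusted p = 0.0159), and within XY- it was 0.19 ± 0.097 and did not pass (limma adjusted p = 0.249). The difference between these effects was -0.43 ± 0.137 and did not pass (limma adjusted p = 0.184). The call within XX was lost without XXsry replicate 1 or 3 and without XX replicate 1 or 2, and when the probe sets of each gene were averaged.

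Lum had 7.44, 7.04 and 7.17 in XXsry, against 7.20, 6.94 and 6.71 in XX. It had 7.33, 7.30 and 7.25 in XY-sry, against 6.50, 6.40 and 6.92 in XY-. Here the groups overlapped in XX and were apart in XY-, the reverse of Dcn. The Sry effect was 0.48 ± 0.105 (limma adjusted p = 0.024), with 0.69 ± 0.149 in XY- (limma adjusted p = 0.0178) and 0.27 ± 0.149 in XX (limma adjusted p = 0.509). Its interaction, the effect in XY- minus that in XX, was 0.42 ± 0.210 and did not pass (limma adjusted p = 0.422). The Sry effect of Lum did not pass without XXsry replicate 3, XX replicate 3, XY-sry replicate 1, XY-sry replicate 3 or XY- replicate 1, and the last 3 of these also ended its call in XY-.

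**Figure D1:**
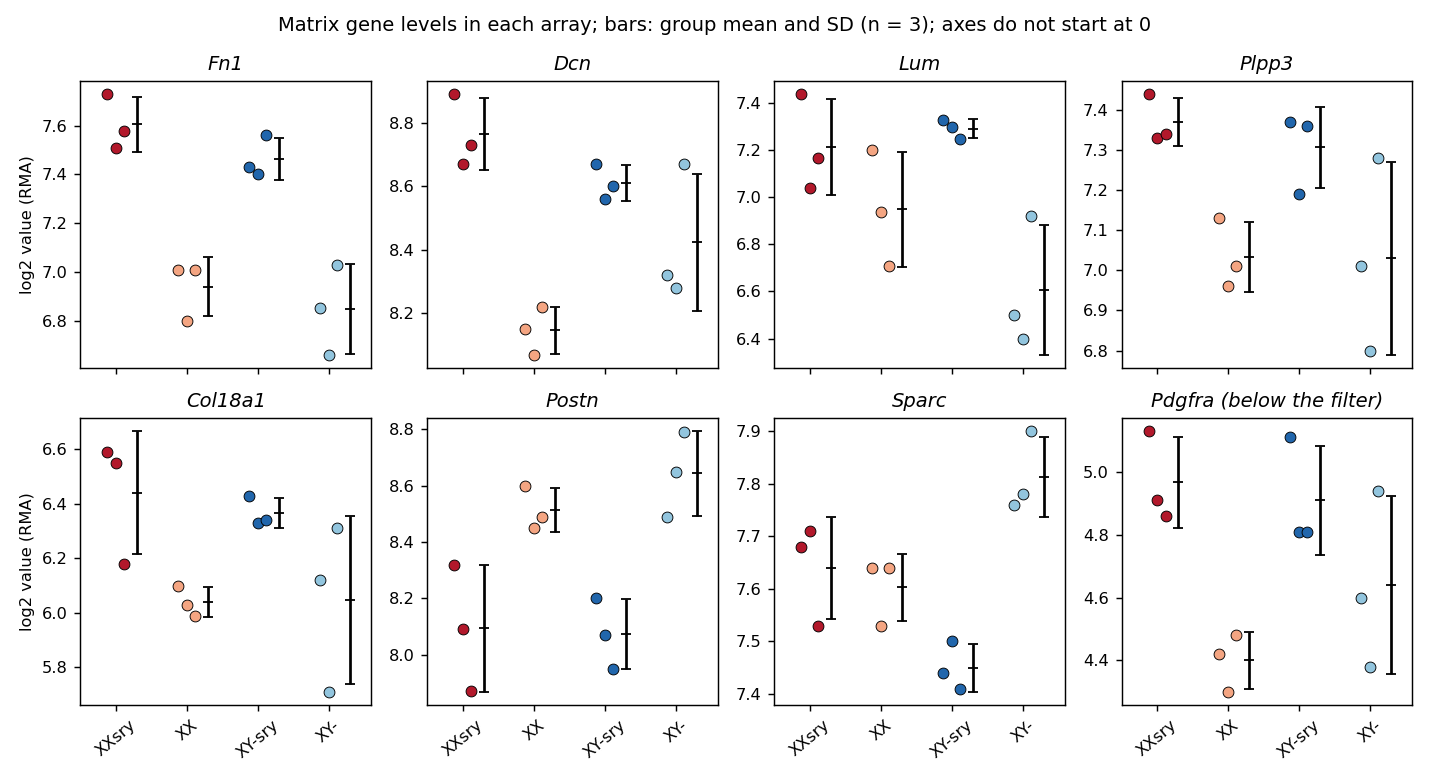
Log2 values of 8 matrix genes in each of the 12 arrays, by group, with the group mean and SD beside the points (n = 3). Fn1 is higher in all 6 arrays with Sry, Postn is lower in all 6, and Sparc is lowest in XY-sry and highest in XY-.

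Postn encodes periostin, a matricellular protein that binds collagen and integrins. It had 8.32, 8.09 and 7.87 in XXsry, against 8.60, 8.45 and 8.49 in XX. It had 8.20, 8.07 and 7.95 in XY-sry, against 8.49, 8.65 and 8.79 in XY-. All 6 arrays with Sry lay below all 6 without it. The Sry effect was -0.50 ± 0.079, or 0.71-fold (limma adjusted p = 0.00519). It passed in XY- at -0.57 ± 0.112 (limma adjusted p = 0.0121), and that call was lost without XY-sry replicate 3 (limma adjusted p = 0.0544), with the actin covariate (limma adjusted p = 0.114) and when only XY-sry and XY- were fitted. It did not pass in XX at -0.42 ± 0.112 (limma adjusted p = 0.146), and the interaction of -0.15 ± 0.158 did not pass either (limma adjusted p = 0.745). Postn, Fn1 and Col4a2 were the genes of the 28 whose arrays with and without Sry did not overlap, 2 higher and 1 lower, where 2.28% and 1.21% of all tested probe sets did the same.

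The distance between Fn1 and Postn separated the arrays with Sry from those without it by more than either gene did. With each gene centred on its mean over the 12 arrays, Fn1 minus Postn was 0.53, 0.54 and 0.83 in XXsry, against -0.47, -0.53 and -0.36 in XX. It was 0.35, 0.45 and 0.73 in XY-sry, against -0.52, -0.87 and -0.64 in XY-. This is a description, since the pair was chosen after its values were seen. The mean of the 28 centred genes, in contrast, overlapped: it ran from -0.03 to 0.14 in XXsry, against -0.16 to 0.01 in XX, and from -0.02 to 0.06 in XY-sry, against -0.11 to 0.13 in XY-.

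**Figure D2:**
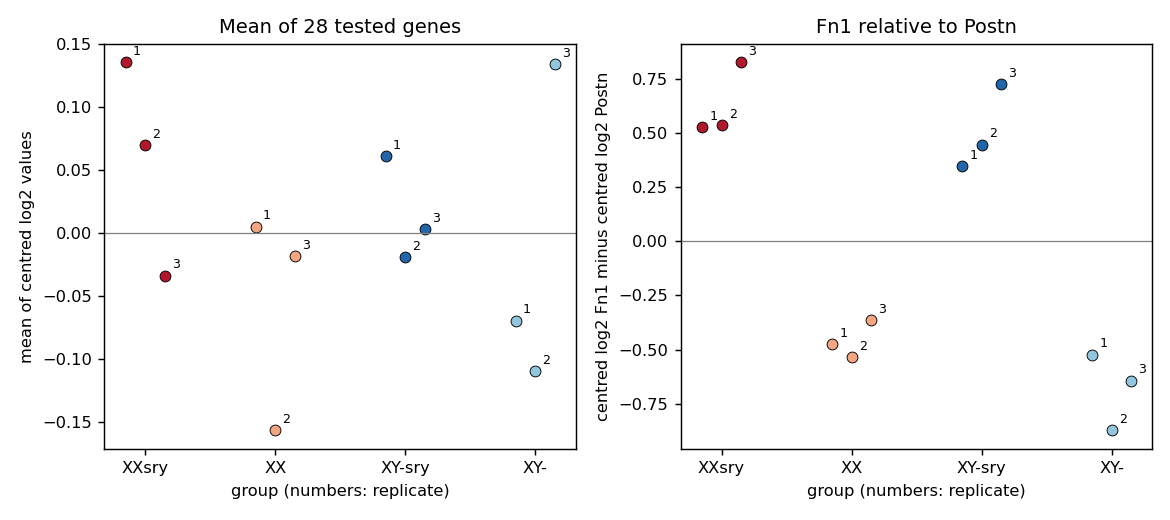
Left, the mean of the 28 tested genes, each centred on its mean over the 12 arrays (log2), by group, with the replicate number beside each point. Right, centred Fn1 minus centred Postn: the 6 arrays with Sry lie between 0.35 and 0.83, and the 6 without it between -0.87 and -0.36.

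Plpp3 encodes a membrane phosphatase that breaks down lysophosphatidic acid and related lipids. It had 7.44, 7.33 and 7.34 in XXsry, against 7.13, 6.96 and 7.01 in XX. It had 7.37, 7.19 and 7.36 in XY-sry, against 7.01, 6.80 and 7.28 in XY-. The groups were apart in XX and overlapped in XY- through XY- replicate 3. The Sry effect was 0.31 ± 0.073 (limma adjusted p = 0.0314), with 0.34 ± 0.104 in XX and 0.28 ± 0.104 in XY-, neither past the threshold (limma adjusted p = 0.209 and 0.118). It passed in 4 of the 12 refits that left out 1 array: without XX replicate 1, XY-sry replicate 2, XY- replicate 2 or XY- replicate 3.

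A second Plpp3 probe set above the filter went otherwise in XY-. It had 6.68, 6.61 and 6.61 in XXsry, against 6.13, 6.06 and 5.99 in XX, and its effect in XX passed at 0.57 ± 0.064 (limma adjusted p = 0.00199). In XY-sry it had 6.13, 6.25 and 6.32, against 6.38, 6.31 and 6.46 in XY-, where it did not pass at -0.15 ± 0.064 (limma adjusted p = 0.163). Both probe sets were higher in XXsry than in XX, and they differed in sign between XY-sry and XY-.

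Col18a1 encodes type XVIII collagen, the basement membrane collagen from which endostatin is cut. It had 6.59, 6.55 and 6.18 in XXsry, against 6.10, 6.03 and 5.99 in XX. It had 6.43, 6.33 and 6.34 in XY-sry, against 6.12, 5.71 and 6.31 in XY-. Within each complement the arrays with Sry lay above those without. The Sry effect was 0.36 ± 0.097, just past the threshold (limma adjusted p = 0.0495), and it passed in 3 of the 12 refits that left out 1 array: without XXsry replicate 3, XY- replicate 2 or XY- replicate 3. Its second probe set differed by 0.24 ± 0.069 and did not pass (limma adjusted p = 0.0617).

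Sparc, also called osteonectin, is a secreted protein that binds collagen. It had 7.68, 7.71 and 7.53 in XXsry, against 7.64, 7.53 and 7.64 in XX. It had 7.44, 7.50 and 7.41 in XY-sry, against 7.76, 7.78 and 7.90 in XY-. The groups overlapped in XX and lay apart in XY-, where the effect was -0.36 ± 0.064 (limma adjusted p = 0.00843), against 0.04 ± 0.064 in XX (limma adjusted p = 0.865). The Sry effect of -0.16 ± 0.045 did not pass (limma adjusted p = 0.0528). That effect passed with a stricter filter, quantile normalization, an intensity trend and robust settings, array weights or 1 probe set per gene. It also passed without XY- replicate 2. The interaction of -0.40 ± 0.091 was the smallest p among the 28 and fell short of the threshold (limma adjusted p = 0.0564). It passed with a stricter filter, with quantile normalization, with an intensity trend and robust settings, and with array weights. It did not pass with no filter, with median centring, with 1 probe set per gene or probe sets averaged, with the replicate number as a block, with the actin covariate, or without any 1 of the 12 arrays. A second Sparc probe set above the filter did not show this pattern: it had 7.46, 7.21 and 7.20 in XY-sry, against 7.06, 6.82 and 7.32 in XY-, a difference of 0.22 ± 0.140 (limma adjusted p = 0.342). The Sry effect of that probe set was 0.08 ± 0.099 (limma adjusted p = 0.668). Averaged over the Sparc probe sets, the effect in XY- was -0.05 and did not pass.

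By role, the tested interstitial collagens had Sry effects below zero and the tested basement membrane genes above it, most of them not past the threshold. Of the 9 interstitial collagen genes 6 were tested, 0 passed, and all 6 had a Sry effect below zero, from -0.24 to -0.03 with a median of -0.06. Of the 11 basement membrane genes 7 were tested, 1 passed (Col18a1), and all 7 lay above zero, from 0.02 to 0.36 with a median of 0.18. Over all tested probe sets the median was 0.02, with 57.4% above zero and 42.4% below. The signs held for the 7 basement membrane genes within XX (0.04 to 0.40) and within XY- (0.01 to 0.32). Among the interstitial collagens, Col6a1 was the exception within XX, at 0.07. Below the filter, the interstitial collagen Col5a1 had 0.07 and the basement membrane gene Nid2 -0.01, against these signs. The counts are of signs over genes that share arrays, several of them within 1 standard error of zero, and no test was made of the split.

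Col3a1, the type III collagen gene, had 7.42, 7.67 and 7.13 in XXsry, against 7.83, 7.44 and 7.60 in XX. It had 7.39, 7.52 and 7.12 in XY-sry, against 7.64, 7.46 and 7.74 in XY-. The groups overlapped in each complement, and the Sry effect of -0.24 ± 0.104 did not pass (limma adjusted p = 0.171). Col5a2, whose product sits inside collagen fibrils, differed by about the same, at -0.235 ± 0.086 (limma adjusted p = 0.121). It passed with the actin covariate, with array weights and without XY- replicate 2. Col1a2 differed by -0.065 ± 0.065 and the type VI collagen genes Col6a1, Col6a2 and Col6a3 by -0.045, -0.05 and -0.03.

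Of the basement membrane genes, Col4a2 had 6.70, 6.53 and 6.55 in XXsry, against 6.47, 6.07 and 6.45 in XX. It had 6.72, 6.53 and 6.59 in XY-sry, against 6.33, 6.31 and 6.47 in XY-. All 6 arrays with Sry lay above all 6 without it, and the difference of 0.25 ± 0.072 fell short of the threshold (limma adjusted p = 0.0583). The partner chain of Col4a2, Col4a1, differed by 0.12 ± 0.068 (limma adjusted p = 0.299). Lamb1, the laminin beta chain, differed by 0.23 ± 0.084 (limma adjusted p = 0.114) and by 0.305 in its second probe set above the filter (limma adjusted p = 0.0757). Col15a1 differed by 0.18 ± 0.068 (limma adjusted p = 0.13), Lamc1 by 0.07 and Hspg2, the perlecan gene, by 0.02.

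**Figure D3:**
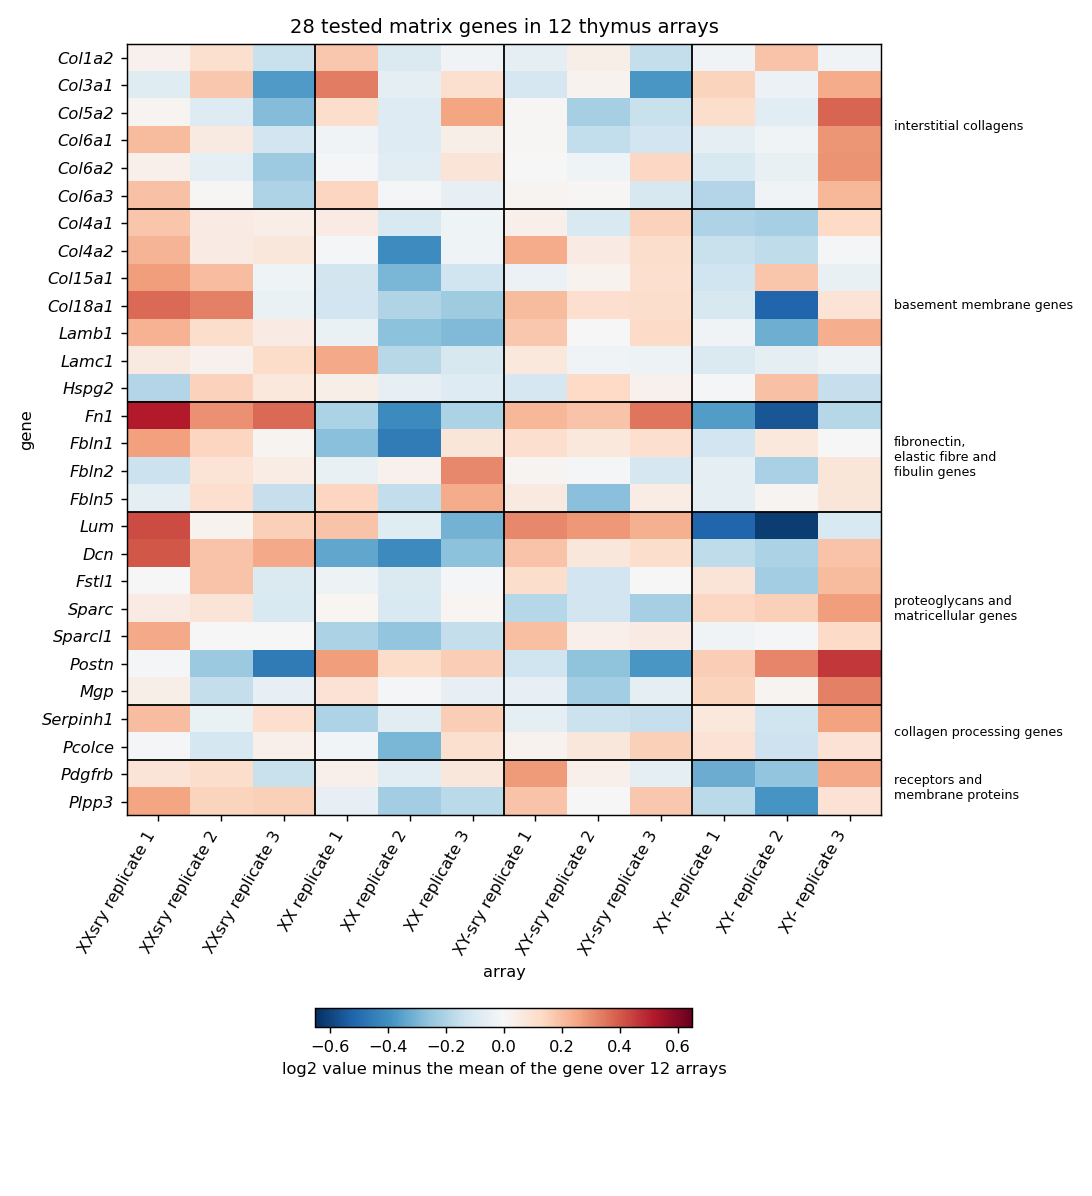
Log2 values of the 28 tested genes, each minus its mean over the 12 arrays, in 12 columns by group and replicate, with genes in rows by role. The scale runs from -0.65 (blue) to 0.65 (red). Fn1 is above its mean in all 6 arrays with Sry and below it in the other 6, and Postn is the reverse.

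Among the other tested genes, none of the fibulins passed: Fbln1, an elastic fibre and basement membrane component, differed by 0.235 ± 0.080 (limma adjusted p = 0.0986), Fbln2 by -0.03 and Fbln5 by -0.09. Sparcl1, a relative of Sparc, differed by 0.18 ± 0.054 (limma adjusted p = 0.0737), and Mgp, the matrix Gla protein that inhibits calcification, by -0.17 ± 0.060 (limma adjusted p = 0.106). Fstl1 differed by 0.025, the collagen chaperone gene Serpinh1 by -0.03, the procollagen processing enhancer Pcolce by 0.05 and Pdgfrb by 0.10.

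The 10 genes below the filter were Col1a1, Col5a1, Col14a1, Lama2, Lama4, Nid1, Nid2, Eln, Loxl1 and Pdgfra. In the fit with no filter on low values, 2 of them passed for the Sry effect, 1 higher and 1 lower, where 1.54% of all probe sets did (0.844% higher and 0.693% lower). Pdgfra had 5.13, 4.91 and 4.86 in XXsry, against 4.42, 4.30 and 4.48 in XX. It had 5.11, 4.81 and 4.81 in XY-sry, against 4.60, 4.38 and 4.94 in XY-. The effect was 0.42 ± 0.093 (limma adjusted p = 0.0446), with a gap in XX and overlap in XY- through XY- replicate 3. Col14a1, a fibril-associated collagen, had 3.36, 3.67 and 3.57 in XXsry, against 4.11, 3.98 and 4.06 in XX. It had 3.65, 3.59 and 3.53 in XY-sry, against 3.99, 3.70 and 3.82 in XY-. All 6 arrays with Sry lay below all 6 without it, and the effect was -0.38 ± 0.066 (limma adjusted p = 0.0116). The share of all unfiltered probe sets with no such overlap was not computed. Col14a1 averaged 3.75 over the 12 arrays, below the array medians of 4.02 to 4.10. At such low intensities RMA values understate differences, and without a detection call signal of the gene cannot be told from background. The other 8 differed by -0.08 to 0.20 and did not pass.

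Split by complement, 2 of the 28 genes passed for XXsry minus XX, both higher (Fn1 and Dcn), or 7.14%, where 0.742% of all tested probe sets passed (0.391% higher). The count was 1 without XXsry replicate 1, XXsry replicate 3 or XX replicate 1, and 0 without XX replicate 2. For XY-sry minus XY-, 4 passed, 2 higher (Fn1 and Lum) and 2 lower (Sparc and Postn), or 14.3%, where 8.64% of all tested probe sets passed (4.27% higher and 4.37% lower). That count was 2 without XY-sry replicate 3 and 6 without XY- replicate 3. It was 0 with the actin gap as a covariate and 0 when the other groups were left out of the fit. The actin gap, given above, was wider in XY-sry (0.83, 0.74 and 0.80) than in XY- (0.69, 0.51 and 0.68). The lowest of these values was that of XY- replicate 2, the array that stood furthest from its group. Without that array the count was 5. The part of the actin gap in the result was not tested beyond the fit with the covariate. For the interaction 0 of 28 passed in limma, 3 had an unadjusted p under 0.05 (Sparc, Dcn and Col15a1), and 1.29% of all tested probe sets passed.

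**Figure D4:**
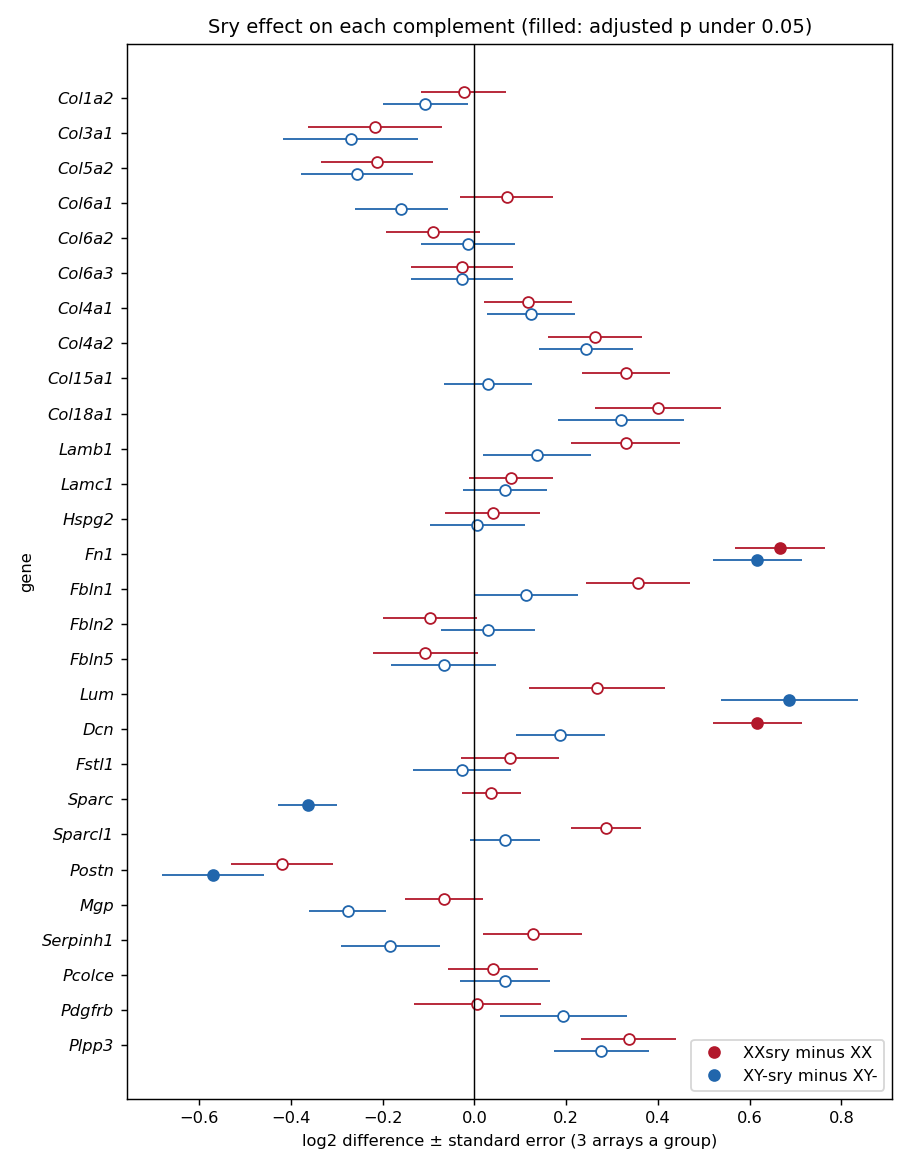
Log2 difference and standard error of each tested gene for XXsry minus XX (red) and XY-sry minus XY- (blue), 3 arrays a group, with filled points at an adjusted p under 0.05. Fn1 is filled in each, Dcn in XX alone, and Lum, Sparc and Postn in XY- alone.

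The complement effect, the mean of XX and XXsry minus the mean of XY- and XY-sry, was small for all 28 genes. None passed in limma (0 of 28, with 1 at an unadjusted p under 0.05, Sparcl1), where 0.0893% of all tested probe sets passed. The differences ran from -0.12 (Sparcl1) to 0.13 (Lum), and every 95% interval lay between -0.25 and 0.36. Without Sry, XX minus XY- had 0 of 28 past in limma and 4 at an unadjusted p under 0.05, where 0.0781% of all tested probe sets passed, and 27 of the 28 intervals lay within 0.5 of zero. With Sry, XXsry minus XY-sry had 0 of 28 past in limma and 1 at an unadjusted p under 0.05, where 0.128% of all tested probe sets passed. Changes of sign between these comparisons were common among the 28: 10 genes lay above zero for XX minus XY- and 20 for XXsry minus XY-sry. Serpinh1 had -0.10 and 0.21, and Col15a1 -0.18 and 0.12. Dcn, Lum and Sparc, described above, were also among the genes that differed in sign. Dcn had -0.28 for XX minus XY- and 0.15 for XXsry minus XY-sry, Lum had 0.34 and -0.08, and Sparc had -0.21 and 0.19, none past the threshold.

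Within groups the genes varied together. After the group means were taken out, the median Pearson correlation over the 378 pairs of the 28 genes was 0.452 (12 arrays, which all pairs share), and 44.2% of pairs exceeded 0.5, where all pairs of tested probe sets had a median of 0.045 and 14.3% above 0.5. Pairs of the same role had a median of 0.472 and pairs of different roles 0.448. The closest pairs were Lamb1 and Plpp3 (0.970), Col6a3 and Postn (0.936) and Mgp and Plpp3 (0.936). Hspg2 ran against the others, with a median correlation of -0.543 to the other 27. Fn1 and Postn, which moved apart with Sry, had medians of 0.617 and 0.486.

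Some of these genes are neighbours in the RefSeq gene order, and in the pairs below both genes had Sry effects of the same sign. The share of neighbours with the same sign over all genes was not computed. Col3a1 and Col5a2 had effects of -0.24 and -0.235 and a within-group correlation of 0.517. Col6a2 and Col6a1 had -0.05 and -0.045 (correlation 0.876), each smaller than its standard error. Within XX these genes differed in sign, at -0.09 and 0.07. Col4a1 and Col4a2 had 0.12 and 0.25 (0.605), and Dcn and Lum 0.40 and 0.48 (0.683).

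Col4a1 and Col4a2 lie head to head, so their promoter windows from RefSeq (GRCm38.p6, 250 bases before to 50 after the start, printed along each gene's own strand) overlap by 78 bases, shown in capitals because both genes start from this stretch. The Col4a2 window is chr8:11312555-11312854 (plus strand) and the Col4a1 window chr8:11312777-11313076 (minus strand).
Col4a2: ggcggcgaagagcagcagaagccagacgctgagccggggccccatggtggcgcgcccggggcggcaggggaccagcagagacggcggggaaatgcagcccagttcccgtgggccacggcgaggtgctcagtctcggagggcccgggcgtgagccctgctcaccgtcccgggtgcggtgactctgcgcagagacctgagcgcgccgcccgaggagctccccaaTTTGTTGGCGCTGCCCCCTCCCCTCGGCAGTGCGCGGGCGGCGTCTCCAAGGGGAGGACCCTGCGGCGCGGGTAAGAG
Col4a1: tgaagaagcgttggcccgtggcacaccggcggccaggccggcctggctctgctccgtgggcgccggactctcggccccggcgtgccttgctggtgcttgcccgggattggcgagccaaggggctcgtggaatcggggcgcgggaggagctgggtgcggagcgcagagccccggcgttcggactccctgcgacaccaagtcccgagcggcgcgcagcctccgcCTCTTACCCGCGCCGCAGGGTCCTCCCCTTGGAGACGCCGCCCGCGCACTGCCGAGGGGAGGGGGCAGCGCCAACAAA

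Promoter windows of 3 genes that passed for the Sry effect are shown next, Plpp3 and Col18a1 (higher) and Postn (lower, with both of its annotated starts), so that these genes that rose can be read beside the one that fell. No window was at hand for Fn1, Dcn or Lum, so the windows shown do not stand for all genes that passed. Plpp3 passed in 12 and Col18a1 in 9 of 22 alternatives. Capitals mark the motifs searched on both strands: TATAAA (the core word of the TATA box), CCAAT (the word bound by NF-Y), GGGCGG (GC box), TGANTCA (AP-1), AACAAT (core word of SOX proteins and SRY) and TGTTCT (steroid receptor half-site), none of which contains another. The windows are Plpp3 chr4:105157097-105157396 (plus strand), Col18a1 chr10:77166481-77166780 (minus strand, the outermost of its starts) and Postn chr3:54359017-54359316 and chr3:54360857-54361156 (plus strand).
Plpp3: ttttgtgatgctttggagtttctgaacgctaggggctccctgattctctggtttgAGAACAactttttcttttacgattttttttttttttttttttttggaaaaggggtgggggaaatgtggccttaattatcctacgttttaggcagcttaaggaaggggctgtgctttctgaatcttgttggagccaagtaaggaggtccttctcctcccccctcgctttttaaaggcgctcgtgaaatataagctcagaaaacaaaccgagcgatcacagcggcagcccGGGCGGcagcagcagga
Col18a1: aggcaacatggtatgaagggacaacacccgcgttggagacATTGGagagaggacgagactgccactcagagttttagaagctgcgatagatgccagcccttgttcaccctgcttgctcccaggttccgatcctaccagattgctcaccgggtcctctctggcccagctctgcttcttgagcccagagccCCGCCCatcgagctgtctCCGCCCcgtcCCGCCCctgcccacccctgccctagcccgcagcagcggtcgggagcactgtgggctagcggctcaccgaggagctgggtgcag
Postn start 1: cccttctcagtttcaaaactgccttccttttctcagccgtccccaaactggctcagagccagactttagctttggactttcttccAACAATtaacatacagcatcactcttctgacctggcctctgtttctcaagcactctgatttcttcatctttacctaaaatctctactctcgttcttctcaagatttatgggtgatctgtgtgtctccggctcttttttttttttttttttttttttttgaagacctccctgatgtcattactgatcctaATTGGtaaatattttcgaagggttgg
Postn start 2: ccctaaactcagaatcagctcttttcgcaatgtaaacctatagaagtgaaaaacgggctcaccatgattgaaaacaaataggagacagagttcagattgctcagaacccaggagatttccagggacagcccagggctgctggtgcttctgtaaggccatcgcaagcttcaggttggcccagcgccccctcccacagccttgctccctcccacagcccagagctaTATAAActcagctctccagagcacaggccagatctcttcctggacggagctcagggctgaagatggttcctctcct

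The Col18a1 window held 3 GC boxes and 1 CCAAT word, the Plpp3 window 1 GC box and 1 TGTTCT word, the first Postn window 1 CCAAT and 1 AACAAT word, and the second Postn window 1 TATA box at position -26 from the start. The other annotated Col18a1 window held none of these words. GC boxes were found in 62.1% of the 29 windows of the 24 measured genes that the table holds, and in 35.7% of all 32851 windows, and the median GC content was 59.7% in the windows of these genes and 52.7% in all windows. The other words were found in 6.9%, 27.6%, 3.45%, 13.8% and 13.8% of these windows (TATA box, CCAAT, AP-1, SOX word, steroid half-site), against 13.6%, 37.4%, 7.81%, 10.7% and 19% of all windows. These are matches of letters in a fixed window and describe no binding.

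Genes that act on the same matrix were counted in further lists for the Sry effect, for which 6.56% of all tested probe sets passed, 3.95% higher and 2.61% lower, with a median of 0.02. Of 9 tested matrix proteases and inhibitors, 0 were higher and 3 lower: Adam12, a cell surface metalloprotease (-0.48 ± 0.061, limma adjusted p = 0.00148), and the metalloprotease inhibitors Timp3 (-0.30 ± 0.061, limma adjusted p = 0.0184) and Timp1 (-0.50 ± 0.105, limma adjusted p = 0.0203). The median of that list was -0.11. Of 9 tested PDGF and TGF-beta genes, 2 were higher and 0 lower, with a median of 0.12: Ltbp3, which holds latent TGF-beta in the matrix (0.64 ± 0.053, limma adjusted p = 8.22e-05), and the TGF-beta coreceptor Tgfbr3 (0.30 ± 0.045, limma adjusted p = 0.00404). Of 9 tested matrix receptors 0 were higher and 2 lower (median 0.00): Sdc1, the syndecan of epithelium and plasma cells, at -0.37 and Cd44, the hyaluronan receptor, at -0.33 (also expressed by lymphocytes).

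The remaining matrix lists had at most 1 member past the threshold each. Nothing is read from so small a count, where 6.56% of all tested probe sets passed. Of 9 tested collagen processing and crosslinking enzymes 1 was higher, the lysyl hydroxylase Plod2 (0.28 ± 0.071, limma adjusted p = 0.0413; list median 0.07). Of 6 other proteoglycan and matricellular genes 1 was lower, Bgn, which encodes biglycan (-0.21 ± 0.054, limma adjusted p = 0.0393; list median 0.09). Of 6 other collagen, laminin and basement membrane genes 0 passed in limma, with a range of 0.02 to 0.25 and a median of 0.14, where 57.4% of all tested probe sets lay above zero. That list also holds Col12a1 (0.085) and Col16a1 (0.02), which are fibril-associated collagens and no basement membrane genes. Of 7 other fibroblast genes 1 was lower, S100a4 (-0.37 ± 0.084, limma adjusted p = 0.0274), which leukocytes also express (list median 0.06). None of these lists had a member past the threshold for the complement effect in limma.

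Markers of other cells of the dissected tissue were set beside these results as counts, to be read against the same 6.56% of all tested probe sets past the threshold (3.95% higher and 2.61% lower), and as sums of linear values over each list. Of 7 tested pericyte and smooth muscle genes 3 were higher with Sry, Abcc9 (0.41), Myh11 (0.36) and Notch3 (0.31), with a list median of 0.01. The contractile genes Acta2 and Tagln had -0.27 and -0.16 and did not pass (limma adjusted p = 0.0512 and 0.276), and Acta2 was lower in XY-sry than in XY- at -0.38 ± 0.104 (limma adjusted p = 0.0453). The sum over all 12 lay between 1079 and 1300 in XXsry, against 1174 and 1264 in XX, and between 1136 and 1201 in XY-sry, against 1155 and 1416 in XY-, so it overlapped. Of 5 tested endothelial genes 0 passed in limma (median 0.01), and the sum over 11 lay between 475.4 and 502.1 in XXsry, against 439.4 and 474.8 in XX, and between 461.9 and 500.4 in XY-sry, against 460.9 and 487.6 in XY-. Of 13 thymic epithelial genes 1 was higher, Dll4 (0.27; list median 0.06), a share near that of all probe sets, and the sum over 13 lay between 9988 and 10760 in XXsry, against 9597 and 10060 in XX, and between 9966 and 10890 in XY-sry, against 9720 and 10050 in XY-.

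Counts of parathyroid, lymphoid and other markers stand beside the same 6.56% of all tested probe sets, 3.95% higher and 2.61% lower. Both tested parathyroid and thyroid genes were higher with Sry, Pth (1.02) and Chga (0.63). Within XX both passed, at 1.50 and 0.84 (limma adjusted p = 0.0243 and 0.042). Within XY- neither passed, at 0.53 and 0.42. The sum over 4 lay between 198.0 and 220.3 in XXsry, against 86.4 and 119.9 in XX, and between 149.7 and 259.5 in XY-sry, against 125.3 and 153.9 in XY-. Of 5 B cell genes 3 were lower (Pou2af1 -0.80, Ms4a1 -0.59 and Ighm -0.53, list median -0.53), with sums over 5 between 3977 and 5463 in XXsry, against 4914 and 7326 in XX, and between 3688 and 4006 in XY-sry, against 5546 and 5808 in XY-. Of 7 macrophage genes 0 passed in limma and all 7 lay below zero (-0.33 to -0.10, median -0.20), with sums over 8 between 2286 and 2741 in XXsry, against 2573 and 2799 in XX, and between 2125 and 2437 in XY-sry, against 2514 and 3208 in XY-. The macrophage gene C1qa was lower in XY-sry than in XY- at -0.45 ± 0.096 (limma adjusted p = 0.0162). Fat genes had 0 of 4 past in limma (median -0.16), with sums over 8 between 829.3 and 1388 in XXsry, against 904.3 and 1076 in XX, and between 742 and 913.7 in XY-sry, against 905.2 and 1083 in XY-. Thymocyte genes, which dominate the tissue, had 1 of 10 lower (Rag2 -0.19, median -0.06), with sums over 10 between 17140 and 17500 in XXsry, against 17350 and 19000 in XX, and between 17090 and 17980 in XY-sry, against 17600 and 18330 in XY-. Skeletal muscle genes had 0 of 2 past in limma (median -0.02), and no mesothelial gene of 6 passed the filter. No marker is at 0 on this log2 scale, which has no detection call. The part of these markers in the matrix gene results was not tested.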

How the data were processed

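Each array took 10 µg of thymus RNA, per the labels' protocols. The authors deposited log2 values per probe set; the submitters' processing notes name RMA, with no version. RMA normalizes quantiles across arrays, so a difference is relative to the other genes on the array.

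The table lists 45101 probe sets. After 64 control probe sets were dropped, the 17925 that averaged 5 or more (log2) over the arrays were tested. Groups came from the sample titles. Group means were fitted with limma 3.58.1 in R 4.3.3 over all 12 arrays, and 7 contrasts were tested with Benjamini-Hochberg adjustment over all tested probe sets, at a threshold of 0.05. Standard errors are limma's moderated ones (8 residual and 3.71 prior degrees of freedom). The number of arrays limits precision. The fit was tested on simulated data.

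Genes past the threshold in at least 1 contrast are given array by array, and other genes by differences and counts. Col3a1, Col4a2, Pdgfra, Col14a1 and the second probe sets are also given array by array and were chosen after their values were seen. The genes and the 17 further lists were chosen with earlier results of these data known. Alternatives changed the filter, the normalization, the variance model, array weights, the probe sets per gene, the samples, the threshold, a replicate block and an actin covariate, and left out each array. Figures were drawn with matplotlib 3.10.9.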

Additional observations from a re-analysis of the deposited data

Results flagged for a closer look

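Among the tested probe sets of these genes, only the second Plpp3 probe set passed for the interaction, where 1.29% of all tested probe sets passed. Its effect was -0.15 ± 0.064 in XY- and 0.57 ± 0.064 in XX, and the effect in XY- minus that in XX was -0.72 ± 0.091 (limma adjusted p = 0.0213). Nothing is read from a single probe set beside that share. The probe set of Plpp3 with the highest mean gave an interaction of -0.06 ± 0.147 (limma adjusted p = 0.903). Groups of 3 arrays are too small for the test of single outlying arrays, so none was made.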

How the results depend on the processing

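Fn1, Dcn and Postn passed for the Sry effect under all 22 alternatives computed for each, from 0.515 to 0.688 for Fn1, from 0.208 to 0.463 for Dcn and from -0.552 to -0.439 for Postn. Lum passed in 16 of 22, Plpp3 in 12 and Col18a1 in 9, and no alternative turned the direction of a called gene. The number of genes called for the Sry effect was 6 in the fit as reported, 15 with array weights, 10 at an adjusted p under 0.1, and 3 to 10 with 1 array left out. For XXsry minus XX it was 2 as reported, 6 with array weights, and 0 to 3 with 1 array left out. For XY-sry minus XY- it was 4 as reported, 9 with array weights, 0 with the actin covariate, 0 with only the groups compared, and 2 to 6 with 1 array left out. With array weights 2 genes (Lum and Sparcl1) passed for XX minus XY-, where 0 passed as reported. For the interaction 1 gene, Sparc, passed with a mean log2 of at least 6, with quantile normalization, with an intensity trend and robust settings, and at an adjusted p under 0.1, and 2 (Lum and Sparc) with array weights, against 0 as reported and 0 with 1 array left out. The weights ran from 0.204 for XY- replicate 2 to 6.67 for XY- replicate 1, and the cause of the higher counts was not tested. The complement effect had 0 under every alternative run (limma).

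The labels number replicates alike in all groups. Over the 18 pairs of same-numbered arrays, deviations from the group means correlated at -0.083 to 0.306, and 8 pairs exceeded 0.1. The numbers were not taken as pairs in the fit as reported, and whether same-numbered arrays share a batch was not tested. With the replicate number as a block the Sry effect had 6 genes (Col4a2 gained, Col18a1 lost), XXsry minus XX 2, XY-sry minus XY- 5, and the other contrasts 0. Over all probe sets the block moved the count for XX minus XY- to 25, against 14 as reported, for XXsry minus XY-sry to 120, against 23, and for the interaction to 377, against 232. The actin covariate moved the count over all probe sets for XY-sry minus XY- to 54, against 1549, and for the interaction to 1, against 232. In 8 of 12 arrays the closest array of another group bore the same number. Among the 3 arrays of each other group, a single array bore that number. The count expected without a shared batch was not computed.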

Other observations

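Dcn and Lum, which encode related small proteoglycans and are neighbours in the genome, took opposite shares of their Sry effects from the complements. Dcn had 0.19 in XY- and 0.62 in XX, and Lum had 0.69 in XY- and 0.27 in XX, with interactions of -0.43 and 0.42 that did not pass (limma adjusted p = 0.184 and 0.422). Within groups the genes still varied together (correlation 0.683 over 12 arrays).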
